A study of Drosophila melanogaster with 6 samples.

Results

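The 10 genes described here carry the unfolded protein response of the endoplasmic reticulum (ER) in the fly. They are the sensors Ire1, PEK and Atf6, the transcription factors Xbp1 and crc, the chaperones Hsc70-3, Gp93 and Calr, and the oxidative folding factors Pdi and Ero1L. Each was picked by its exact symbol in the table of 8470 genes that the authors deposited, and all 10 were present. They were measured by mRNA sequencing of intestinal stem cells (ISCs) of the adult Drosophila melanogaster midgut, in 3 control libraries and 3 libraries with RNAi against NF-YA. NF-YA is the DNA-contacting regulatory subunit of the trimeric transcription factor NF-Y. Both groups were female flies carrying Esg-Gal4-ts, UAS-2x YFP and Su(H)-GBE-Gal80, which together are termed ISC-Gal4. The control group combined this driver with Oregon R, a wild-type strain, and the other group combined it with the NF-YA RNAi line VDRC 106132. The esg promoter is active in ISCs and in enteroblasts, the progenitors of enterocytes, and Gal80 keeps the driver off in enteroblasts. The labels give 3 days at 18 °C after eclosion, 3 days at 29 °C, at which RNAi is induced, and 3 days on holidic (chemically defined) food, while the study's methods give 3 days on the holidic diet at 29 °C. Cells were sorted by YFP, so the RNA came from whatever cells passed that gate, and the number of guts per library is not given in the sources used here. The methods call the samples independent and state that they were processed in parallel. Control libraries are numbered 1, 2 and 3, and NF-YA RNAi libraries 2, 4 and 5, after their library names.

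The unfolded protein response adjusts the folding capacity of the ER to the load of secreted and membrane proteins. Ire1 is a transmembrane kinase and RNase that removes a short intron from Xbp1 mRNA, which lets the mRNA encode an active transcription factor. PEK, the fly PERK, phosphorylates the translation factor eIF2alpha, and crc, the fly ATF4, is translated more when this happens. Atf6 is cut by Golgi proteases and then acts on transcription. Hsc70-3, the fly BiP, binds unfolded chains and holds the sensors inactive. In the fly gut, Ire1, Xbp1 and PEK are known to influence ISC proliferation. Regulatory elements that answer to ER stress in mammalian chaperone promoters contain a site for NF-Y. Sequences of the genes and their promoters were not analysed here.

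Library depth was between 77092609 and 122269943 estimated fragments, with NF-YA RNAi library 5 the shallowest. The targeted gene, Nf-YA, was at 16.0, 19.7 and 23.6 CPM (counts relative to the normalized size of the library) in control libraries and at 3.58, 4.92 and 4.30 CPM in NF-YA RNAi libraries. This left 21.6% of its control mRNA (log2 fold change -2.21, SE 0.20, adjusted p = 0.0002026). Of 9080 genes tested with edgeR's quasi-likelihood test, 6.19% were called upregulated, 8.02% downregulated and 14.2% either way at a Benjamini-Hochberg adjusted p under 0.05, and these shares are the background for the counts below. The median log2 fold change over all genes was -0.02. The sort was checked on progenitor markers, of which 4 of 6 were tested. These are shared by ISCs and enteroblasts or typical of enteroblasts, and the marker that separates ISCs from enteroblasts was not analysed here, so stem cell identity as such was not checked. The 4 markers summed to between 711 and 811 TPM (a level per transcript length, scaled to a fixed total per library) in the 6 libraries, and esg, which drives the YFP reporter, fell from 279 ± 32.2 to 181 ± 13.4 CPM (SD, n = 3; log2 fold change -0.62, SE 0.11, adjusted p = 0.00714).

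RNA of other gut cells was present and differed between the groups. The 13 enterocyte markers summed to 4098, 1647 and 1450 TPM in control libraries 1, 2 and 3 and to 1240, 423 and 208 TPM in NF-YA RNAi libraries 2, 4 and 5. Of these markers, 5 were called downregulated and 0 upregulated, and the enterocyte myosin gene Myo31DF was among those called. Most of each sum came from digestive enzyme genes. The enterocyte transcription factor gene nub did not follow them, at 6.87, 7.53 and 7.80 CPM in control and, after RNAi, at 13.4, 10.7 and 8.11 CPM (log2 fold change 0.54, adjusted p = 0.107). The 10 enteroendocrine markers summed to between 2995 and 4063 TPM in control and to between 769 and 2008 TPM in NF-YA RNAi, with 5 called downregulated. Among them was pros (adjusted p = 0.0450), which was called in 1 of 6 fits without 1 library. Visceral muscle markers summed to between 17.2 and 35.3 TPM and neuron markers to between 7.34 and 16.3 TPM. Hemocyte markers were at 2.52 TPM or less and fat body markers at 0.583 TPM or less, and He, which defines hemocytes, and Lsp2, which defines fat body, were at 0 in every library. In sorted bulk samples, a smaller number of cells of a type and less RNA per cell cannot be told apart.

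The 10 genes did not move as a block. Of them, 3 were called upregulated (Hsc70-3, Gp93 and Pdi), 2 downregulated (Calr and Xbp1) and 5 were not called (Ire1, PEK, Atf6, crc and Ero1L). Their median log2 fold change was 0.12. Control and NF-YA RNAi libraries did not overlap in 7 of the 10 genes, where 35.9% of all genes tested were separated in this way. By role, 0 of 3 sensors, 1 of 2 transcription factors, 3 of 3 chaperones and 1 of 2 oxidative folding factors were called. Of the sensors, 0 of 3 passed an unadjusted p of 0.05 in this edgeR fit, and 0 of 3 were called by DESeq2.

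**Figure D1:**
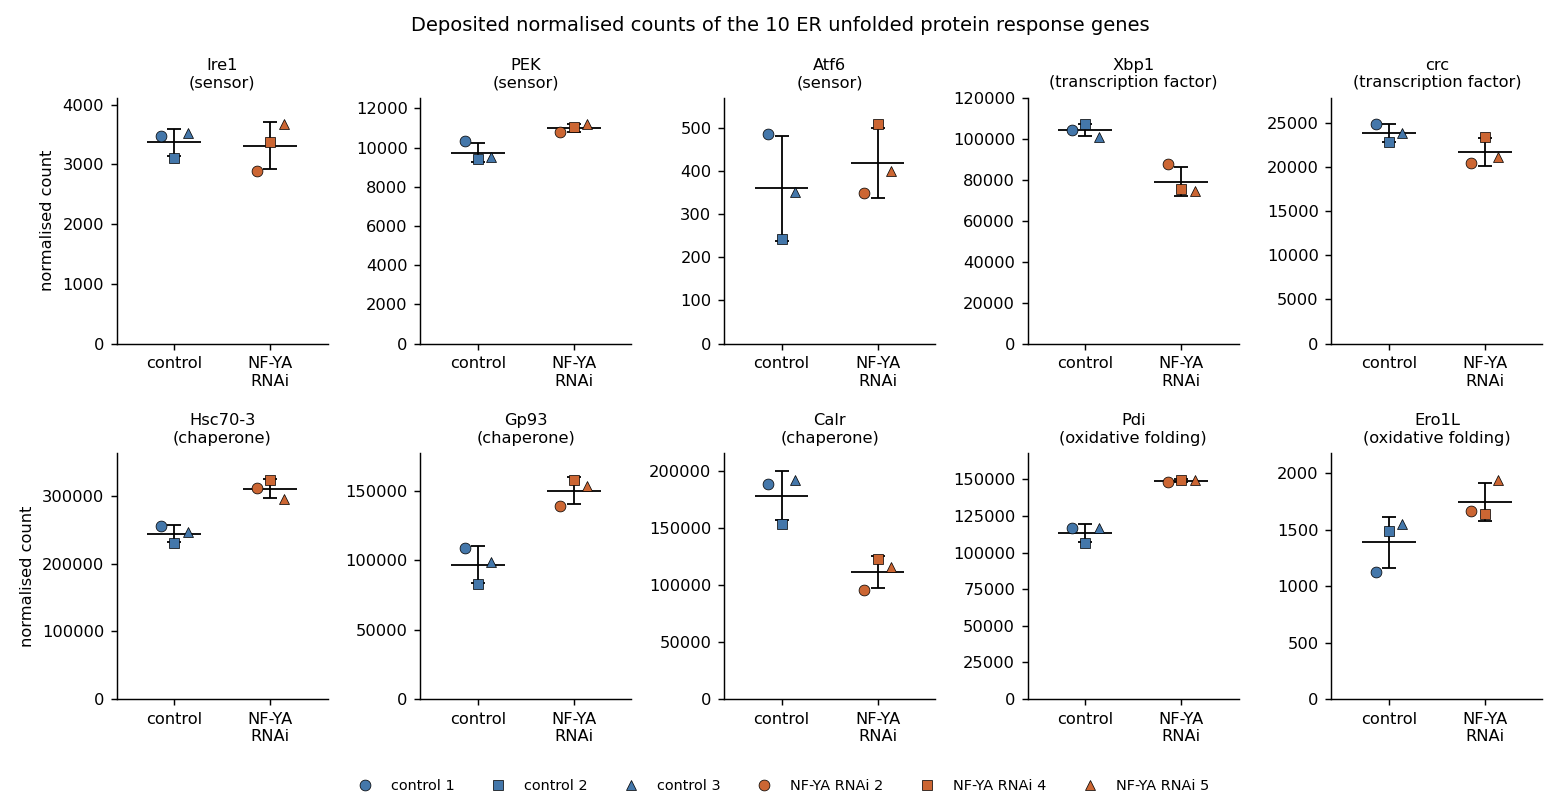
Deposited normalised counts of the 10 genes for each library (points, marked by library), with the mean (long line) and SD (error bar) of 3 libraries per group; each axis starts at 0 and has its own scale. All NF-YA RNAi points lie above all control points for Hsc70-3, Gp93 and Pdi, and also for PEK and Ero1L, which were not called. They lie below them for Calr and Xbp1, and Ire1, Atf6 and crc overlapped.

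Values per library are given below as deposited normalised counts, in which the authors divided gene counts by factors for library size that differ by gene. The differences were slight except for Atf6. In NF-YA RNAi library 5 the deposited value was 1.48 times the summed count for Atf6 and 1.34 times for Ire1. Deposited counts compare libraries for 1 gene and not genes with each other.

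None of the 3 sensors passed the test. Ire1 (FBgn0261984; 3R, 19853908 to 19861291, minus strand) was at 3473, 3109 and 3520 normalised counts in control libraries 1, 2 and 3 and at 2889, 3368 and 3670 in NF-YA RNAi libraries 2, 4 and 5. The groups overlapped, and the lowest and the highest value were both from NF-YA RNAi. The log2 fold change was -0.03 (SE 0.12, 95% interval -0.31 to 0.24, adjusted p = 0.904). With scaling by library size only it was 0.06, and without NF-YA RNAi library 2 it was 0.05, so its sign is not settled. Ire1 shares 496 bases with MICU3 on the other strand, and the mean level of MICU3 was 2.07 TPM in control against 2.23 TPM after RNAi. The strand setting of the counting is not given in the sources used here.

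PEK (FBgn0037327; 3R, 5458563 to 5464753, minus strand) was at 10316, 9393 and 9525 normalised counts in control and at 10776, 11057 and 11187 in NF-YA RNAi. Every NF-YA RNAi library was above every control library, by a small margin. The means were 9745 ± 499 and 11007 ± 210 (SD, n = 3), or 1.13-fold. The log2 fold change of 0.17 (SE 0.09, 95% interval -0.03 to 0.37) did not pass the test (adjusted p = 0.234). With scaling by library size only it was 0.26 (edgeR, unadjusted p = 0.0139, adjusted p = 0.0744). Without control library 1 it was 0.21 (edgeR, unadjusted p = 0.0498, adjusted p = 0.221). Under the remaining alternatives the unadjusted p of PEK was above 0.05.

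Atf6 (FBgn0033010; 2R, 5144733 to 5154756, plus strand) was the most weakly expressed of the 10 genes. It was at 487, 243 and 351 normalised counts in control and at 350, 509 and 401 in NF-YA RNAi. The range of control values enclosed 2 of the 3 NF-YA RNAi values, and the interval of its log2 fold change ran from -0.66 to 0.80 (estimate 0.07, SE 0.33, adjusted p = 0.919). Changes of Atf6 within that interval, in either direction, are compatible with these data, and the size of change that could be detected was not analysed. The estimate turned to -0.14 without control library 2 and to -0.13 without NF-YA RNAi library 4. On log2 of the deposited values plus 1, the log2 fold change of Atf6 was 0.26 (limma, adjusted p = 0.609). Its fragments were spread over 3 transcripts in proportions that varied between libraries of the same group, from 0% to 62.4% in control for FBtr0086079. FBtr0086081 took 23.1%, 45.1% and 31.5% in control and 47.5%, 52.9% and 64.5% in NF-YA RNAi, without overlap. FBtr0086079 and FBtr0086080 overlapped between the groups. These shares rest on 243 to 584 Atf6 fragments per library, and no test was run on them.

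The transcription factors differed from each other. Xbp1 (FBgn0021872; 2R, 21143545 to 21145750, plus strand), the effector of Ire1, was at 104351, 107237 and 101233 normalised counts in control and at 87598, 75552 and 74528 in NF-YA RNAi. All NF-YA RNAi libraries were below all control libraries, with library 2 nearest to them. Its mean was 104274 ± 3003 in control and 79226 ± 7268 in NF-YA RNAi (SD, n = 3), a ratio of 0.760, and it fell by 0.40 on the log2 scale (SE 0.09, 95% interval -0.60 to -0.20, adjusted p = 0.0188). This call depended on single libraries. Without control library 1, control library 2, NF-YA RNAi library 4 or NF-YA RNAi library 5 the adjusted p was 0.0506, 0.0593, 0.0812 and 0.0988, while the log2 fold change stayed between -0.48 and -0.34.

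For crc (FBgn0000370; 2L, 21310866 to 21319527, plus strand), the effector downstream of PEK, the values were 24872, 22856 and 23915 normalised counts in control and 20425, 23475 and 21140 in NF-YA RNAi. NF-YA RNAi library 4 lay within the control range and the other two below it. The log2 fold change was -0.14 (SE 0.09, 95% interval -0.35 to 0.06, adjusted p = 0.354). The gene shares 5168 bases on the same strand with CG46314, which was at 0.635 TPM in control and 0.215 TPM in NF-YA RNAi.

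The chaperones moved in opposite directions. Gp93 (FBgn0039562; 3R, 27948711 to 27952151, plus strand), the fly GRP94, an Hsp90-family chaperone of the ER lumen, was at 108787, 82651 and 98829 normalised counts in control and at 138905, 157758 and 153362 in NF-YA RNAi. The lowest NF-YA RNAi library stood well above the highest control library. Gp93 rose 1.55-fold, from 96756 ± 13191 to 150008 ± 9864 (SD, n = 3; log2 fold change 0.63, SE 0.11, adjusted p = 0.00611), the largest increase among the 10 genes.

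Hsc70-3 (FBgn0001218; X, 11801696 to 11807117, minus strand), the Hsp70-family chaperone of the ER, was at 254882, 230272 and 245909 normalised counts in control and at 311083, 323545 and 295501 in NF-YA RNAi. Again the groups did not overlap. It rose 1.27-fold, from 243688 ± 12454 to 310043 ± 14051 (SD, n = 3; log2 fold change 0.34, SE 0.07, adjusted p = 0.0160). Without NF-YA RNAi library 4, in which it was highest, the adjusted p was 0.0739 and the log2 fold change 0.31.

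Calr (FBgn0005585; 3R, 9628691 to 9630851, minus strand), the soluble lectin chaperone calreticulin, which also stores calcium, went the other way. It was at 188968, 153597 and 192495 normalised counts in control and at 95995, 122582 and 116302 in NF-YA RNAi. The highest NF-YA RNAi library was below the lowest control library, control library 2. Its mean went from 178353 ± 21512 to 111627 ± 13897 (SD, n = 3), a ratio of 0.626, and it fell by 0.68 on the log2 scale (SE 0.12, 95% interval -0.94 to -0.42, adjusted p = 0.00611). The sisRNA:CR46357 gene shares 186 bases with Calr on the same strand and was at 1.34 TPM in control and 0 in NF-YA RNAi, against 1127 TPM for Calr itself in control.

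In oxidative folding, Pdi (FBgn0286818; 3L, 15137738 to 15142840, minus strand), protein disulfide isomerase, was at 116942, 106252 and 116779 normalised counts in control and at 147779, 149460 and 149595 in NF-YA RNAi. The NF-YA RNAi libraries were close together and all above control. Pdi rose 1.31-fold, from 113324 ± 6126 to 148945 ± 1012 (SD, n = 3; log2 fold change 0.39, SE 0.07, adjusted p = 0.0104). Ero1L (FBgn0261274; 3L, 4170404 to 4173789, plus strand), the oxidase that recharges Pdi, was at 1127, 1489 and 1547 normalised counts in control and at 1665, 1635 and 1941 in NF-YA RNAi. The groups did not overlap, but control library 1 stood low and the gap between the groups was narrow. Its ratio of 1.26 was close to that of Pdi, yet its log2 fold change of 0.32 (SE 0.16, 95% interval -0.04 to 0.68) did not pass the test (adjusted p = 0.219). Without control library 1 the log2 fold change of Ero1L was 0.19.

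**Figure D2:**
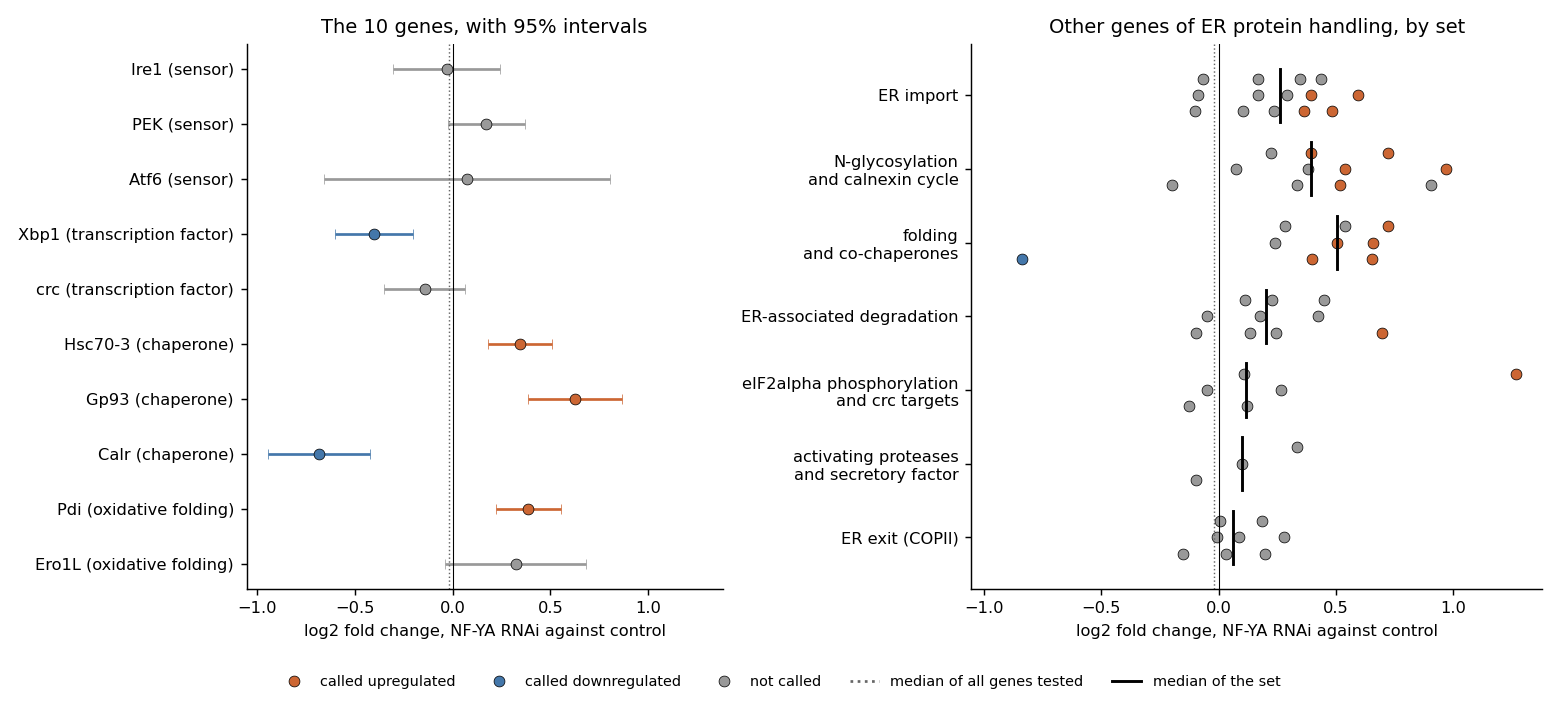
Log2 fold changes, NF-YA RNAi against control, from edgeR: left, the 10 genes with 95% intervals; right, 61 other genes of ER protein handling as points by set, with the median of each set as a black bar. The intervals of the 3 sensors, crc and Ero1L include 0, those of Hsc70-3, Gp93 and Pdi lie above it and those of Xbp1 and Calr below it; in the right panel shv is the 1 gene called downregulated.

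Gp93, Calr and Pdi were called in each of the 6 fits that left out 1 library. When the mean log2 level of the enterocyte markers was added to the model, 0 of the 10 genes passed an adjusted p of 0.05 and 4 of 10 passed an unadjusted p of 0.05 in edgeR. The log2 fold changes in that fit were 0.64 for Gp93 (adjusted p = 0.204), 0.42 for Hsc70-3 (adjusted p = 0.208), 0.40 for Pdi (adjusted p = 0.258), -0.81 for Calr (adjusted p = 0.123) and -0.26 for Xbp1 (adjusted p = 0.598). Of the genes not called, the log2 fold change in that fit was 0.044 for Ero1L, -0.22 for Ire1, 0.39 for Atf6, 0.19 for PEK and -0.14 for crc. Over all genes that fit called 33 upregulated and 46 downregulated, and the summed marker level did not overlap between the groups. The part of enteroendocrine RNA in these results was not tested.

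Levels per transcript length covered a wide range. In control the order was Calr (1127 ± 92.6 TPM), Hsc70-3 (666 ± 4.80), Pdi (467 ± 7.37), Xbp1 (421 ± 29.5), Gp93 (283 ± 26.3), crc (108 ± 1.08), PEK (17.0 ± 0.516), Ire1 (6.77 ± 0.205), Ero1L (5.69 ± 1.09) and Atf6 (1.01 ± 0.303), each as TPM with the SD of 3 libraries. No neighbours in this order overlapped between control libraries. Calr had a higher control level than 98.9% of the genes tested, whereas Ire1 was near the middle (52.1%) and Atf6 in the lower part (24.0%). In NF-YA RNAi, Hsc70-3 (895 ± 45.5 TPM) stood above Calr (746 ± 92.7 TPM) and Gp93 (464 ± 30.4 TPM) above Xbp1 (337 ± 31.8 TPM), in both cases without overlap between libraries. Ero1L (7.07 to 8.31 TPM) and Ire1 (6.15 to 7.75 TPM) overlapped there.

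The summed mRNA of the 3 chaperones differed by less than the spread between libraries. It was 2132, 1942 and 2153 TPM in control libraries and 1973, 2250 and 2090 TPM in NF-YA RNAi libraries, with means of 2076 ± 116 and 2105 ± 139 TPM (SD, n = 3). The groups overlapped. Within that sum the makeup differed. Calr was 54.3% of it in control and 35.4% in NF-YA RNAi, Hsc70-3 32.2% and 42.6%, and Gp93 13.6% and 22.0%, and none of the 3 shares overlapped between groups. These sums and the ratios that follow were chosen after the values were seen and carry no test.

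Gp93 stood at 0.266, 0.249 and 0.237 of the Calr level in control and at 0.669, 0.595 and 0.610 in NF-YA RNAi, a 2.49-fold higher mean ratio. For Hsc70-3 relative to Calr the mean ratio was 0.593 ± 0.0488 in control and 1.21 ± 0.164 in NF-YA RNAi. Gp93 also stood higher relative to Hsc70-3, at 0.424 ± 0.0368 and 0.519 ± 0.0389. Pdi was, relative to Hsc70-3, at 0.702 ± 0.0130 and 0.726 ± 0.0343 with overlapping groups, and relative to Ero1L at 84.4 ± 17.9 and 86.7 ± 7.72 (all ratios of TPM within a library, SD, n = 3). A ratio within a library does not depend on how libraries are scaled to each other.

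**Figure D3:**
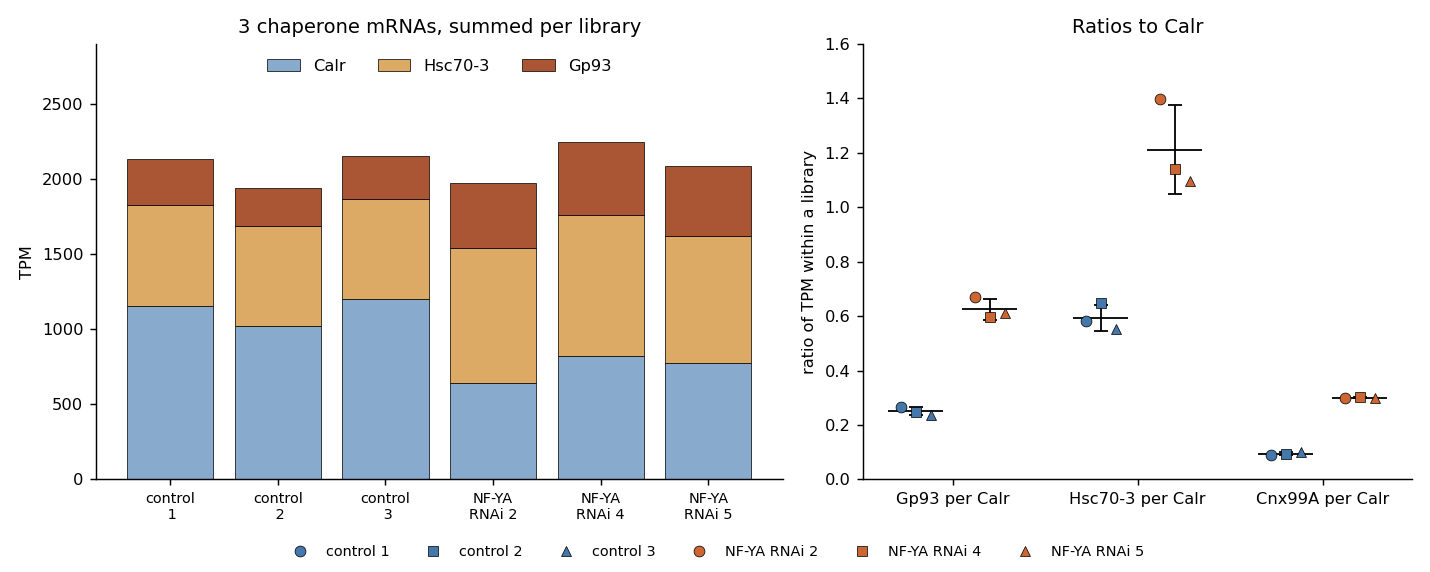
Left, TPM of Calr, Hsc70-3 and Gp93 stacked for each library; right, TPM of Gp93, Hsc70-3 and Cnx99A divided by that of Calr within each library (points), with group means (lines) and SD (error bars, n = 3). The summed heights lie between 1942 and 2250 TPM in all 6 libraries, while Calr takes a smaller part of each NF-YA RNAi bar and all 3 ratios are higher in NF-YA RNAi.

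Compared directly, the sensors summed to 25.4, 24.5 and 24.3 TPM in control libraries and to 27.0, 29.1 and 29.3 TPM in NF-YA RNAi libraries. These sums did not overlap in TPM (ratio of means 1.15), and most of each was PEK. TPM is scaled only to a fixed total per library, and its ratios ran higher than those of the deposited normalised counts. The ratio of means for PEK was 1.19 in TPM and 1.13 in deposited counts, and for Ire1 1.04 and 0.98. On the deposited scale the sums of the 3 sensors overlapped, with NF-YA RNAi library 2 below control library 1. Sums of deposited counts are not scaled by transcript length. Chaperone mRNA was 83.9 ± 4.64 times sensor mRNA in control and 73.9 ± 3.13 times in NF-YA RNAi (SD, n = 3). On the log2 scale the sensors ranged from -0.03 to 0.17 and the chaperones from -0.68 to 0.63, so the chaperones spread far more widely than the sensors, and in both directions. Whether the 2 roles differ was not tested, since 3 genes of a role are not replicates.

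Xbp1 was the 1 gene of the 10 in which a transcript difference reports on sensor activity. Its annotated transcripts FBtr0310045 and FBtr0310044 differ by a 23-base intron (2R, 21144506 to 21144528 in BDGP6.54), which is absent from the first and retained in the second. Otherwise they share their introns and differ only at their ends. The first is the spliced form made by Ire1. It took 78.5%, 69.7% and 63.8% of the Xbp1 fragments in control libraries and 68.8%, 61.5% and 65.7% in NF-YA RNAi libraries. The groups overlapped, and control library 1 stood highest. The mean share was 70.7% ± 7.35 in control and 65.3% ± 3.68 in NF-YA RNAi (SD, n = 3), a difference of -5.37 percentage points (two-sided exact permutation test, p = 0.4, where 0.1 is the smallest p that 3 against 3 allows). Without control library 1 the difference was -1.48 percentage points. Since the 2 forms differ by few bases, the share rests on how Salmon divided fragments between them, and reads across the junction were not analysed here.

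As levels, the spliced form was at 319, 318 and 258 TPM in control libraries and at 258, 199 and 207 TPM in NF-YA RNAi libraries. Control library 3 (257.98 TPM) and NF-YA RNAi library 2 (257.54 TPM) were almost equal, and the groups just failed to overlap. The unspliced form was at 86.6, 137 and 145 TPM in control and at 116, 124 and 107 TPM in NF-YA RNAi, and overlapped. The mean of the spliced form was 0.742 of its control level and that of the unspliced form 0.942, and no test was run on either form alone.

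**Figure D4:**
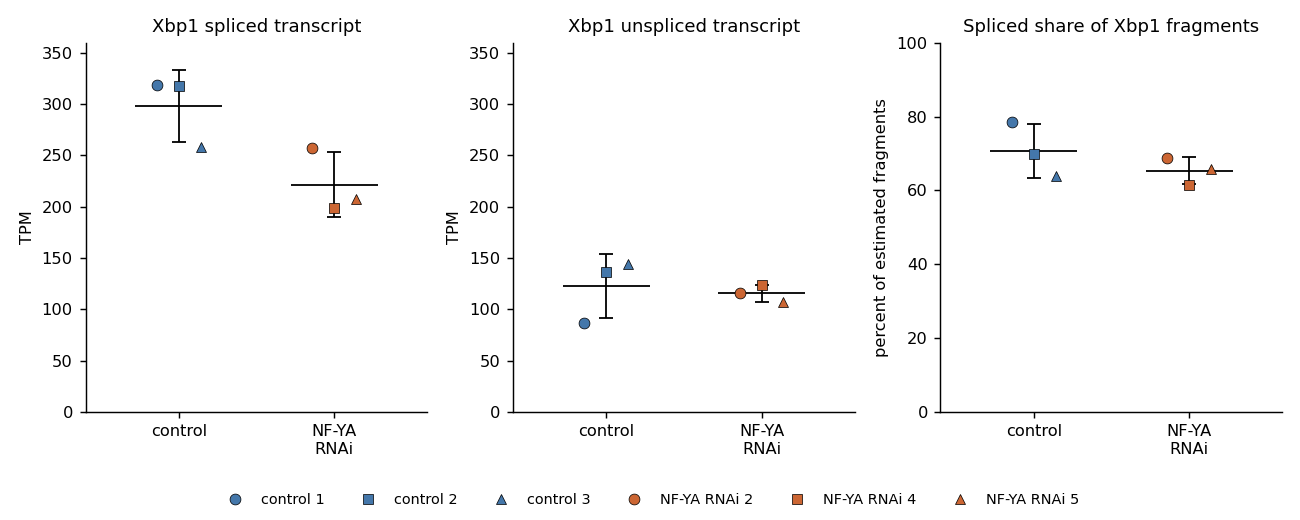
TPM of the spliced and unspliced Xbp1 transcripts and the spliced share of Xbp1 fragments in percent, for each library (points), with group means (lines) and SD (error bars, n = 3). The spliced transcript has means of 298 TPM in control and 221 TPM in NF-YA RNAi, and the spliced share overlaps between the groups.

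Apart from Atf6, described above, the other members gave little transcript information. Ire1, Gp93 and Ero1L each had a single transcript in the files, and the main transcript took at least 97.2% of PEK, 99.6% of Calr, 99.8% of Pdi and 92.8% of crc fragments in every library. Hsc70-3 was divided over 5 transcripts that differ in part of the sequence, of which FBtr0073609 took 48.4%, 49.0% and 49.9% in control and 50.6%, 36.8% and 41.4% in NF-YA RNAi, with overlapping groups.

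The wider ER protein handling machinery was read from a list of 63 other genes in 7 sets, of which 61 were tested. Of these, 16 were called upregulated (26.2%), against 6.19% of all genes, and 1 was called downregulated (1.64%), against 8.02%. The list was chosen with earlier results of these data known, and no test of the list was run. The median log2 fold change was 0.24, and 49 were higher and 12 lower in NF-YA RNAi. The count of 17 called genes dropped to 8 when NF-YA RNAi library 5 was left out, to 9 without library 4 of that group, to 10 without control library 1, to 11 without control library 2 and to 1 with the enterocyte markers in the model.

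Of the 7 sets, folding factors and co-chaperones had the largest share of called genes. In it 5 of 9 tested genes rose and 1 fell, with a median log2 fold change of 0.51. CaBP1, a thioredoxin-domain relative of Pdi, rose from 329 ± 19.1 to 520 ± 1.92 CPM (log2 fold change 0.66, SE 0.08, adjusted p = 0.00168). ERp60, another disulfide isomerase, which in mammals works with calnexin and calreticulin, rose from 709 ± 45.4 to 1116 ± 65.8 CPM (log2 fold change 0.65, SE 0.09, adjusted p = 0.00189). Manf, an ER stress-inducible secreted factor, rose from 29.1 ± 4.48 to 48.1 ± 4.47 CPM (log2 fold change 0.72, SE 0.14, adjusted p = 0.00937). The gene that fell was shv, a DnaJ-type co-chaperone, at 73.4, 67.2 and 92.5 CPM in control and, after RNAi, at 40.7, 48.9 and 40.8 CPM (log2 fold change -0.84, SE 0.14, adjusted p = 0.00537).

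In N-glycosylation and the calnexin cycle 5 of 11 genes rose and 0 fell, with a median of 0.40. Cnx99A, a calnexin, is the membrane-bound counterpart of Calr. It was at 256, 221 and 301 CPM in control and at 437, 567 and 521 CPM in NF-YA RNAi (log2 fold change 0.97, SE 0.14, adjusted p = 0.00256), and was called in all 6 fits without 1 library. The second calnexin gene, Cnx14D, chosen after its values were seen, was far lower, at 1.65 ± 0.323 CPM in control and, after RNAi, at 3.10 ± 0.210 CPM, and did not pass the test (adjusted p = 0.105). In TPM, Cnx99A was 0.0894, 0.0940 and 0.102 of Calr in control and 0.300, 0.301 and 0.299 of it in NF-YA RNAi. The balance of membrane-bound to soluble lectin chaperone mRNA was therefore 3.15-fold higher, with NF-YA RNAi libraries that were almost equal. The oligosaccharyltransferase subunit genes Ostgamma (log2 fold change 0.72, adjusted p = 0.00644) and OstDelta (0.54, adjusted p = 0.0233) also rose, and were called in 6 and 2 of the 6 fits without 1 library.

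Among genes of ER import 4 of 14 rose and 0 fell, with a median of 0.26. They included SsRbeta, a subunit of the translocon-associated complex, from 101 ± 6.14 to 142 ± 12.9 CPM (adjusted p = 0.0151), Sec61beta, a subunit of the translocation channel, from 180 ± 15.9 to 271 ± 45.6 CPM (adjusted p = 0.0193), and TRAM, a membrane protein at the channel, from 62.3 ± 2.94 to 81.9 ± 5.57 CPM (adjusted p = 0.0262). Without 1 library these 3 were called in 3, 2 and 2 of 6 fits. In ER-associated degradation 1 of 10 tested genes was called (10%, near the 14.2% of all genes called either way). It was Hrd3, a partner of the membrane ubiquitin ligase, which rose from 19.5 ± 1.68 to 31.6 ± 4.06 CPM (log2 fold change 0.70, SE 0.13, adjusted p = 0.0102). The Xbp1-linked gene Edem1, also named after its values were seen, was at 39.2 ± 0.636 CPM in control and, after RNAi, at 43.0 ± 2.7 CPM (adjusted p = 0.429). The sets of activating proteases with the secretory factor CrebA (3 genes) and of ER exit by COPII vesicles (8 genes) had 0 called genes in edgeR. At an unadjusted p under 0.05 in edgeR, 0 of the former and 1 of the latter passed, and DESeq2 called 0 and 1.

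The set around eIF2alpha phosphorylation holds eIF2alpha itself, the further kinase Gcn2 and targets of crc. In it 1 of 6 genes was called, and it rose (16.7%, near the 14.2% of all genes called either way). AsnS, asparagine synthetase, whose mammalian counterpart is a target of ATF4, was at 23.2, 28.7 and 28.4 CPM in control and at 58.2, 64.6 and 70.9 CPM in NF-YA RNAi. The groups were far apart (log2 fold change 1.27, SE 0.13, adjusted p = 0.000407). AsnS was the gene of the list with the highest fold change, and the 1 gene still called with the enterocyte markers in the model, with an adjusted p of at most 0.0230 over all alternatives. Relative to crc itself, AsnS was at 0.122 ± 0.0181 in control and 0.326 ± 0.0367 in NF-YA RNAi (TPM within a library, SD, n = 3). Thor, the fly 4E-BP and a crc target, was at 586 ± 61.6 and 566 ± 24.7 CPM (adjusted p = 0.791), and PPP1R15, which directs dephosphorylation of eIF2alpha, at 34.3 ± 1.29 and 41.2 ± 4.97 CPM (adjusted p = 0.166). Thor and PPP1R15 were named after their values were seen.

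**Figure D5:**
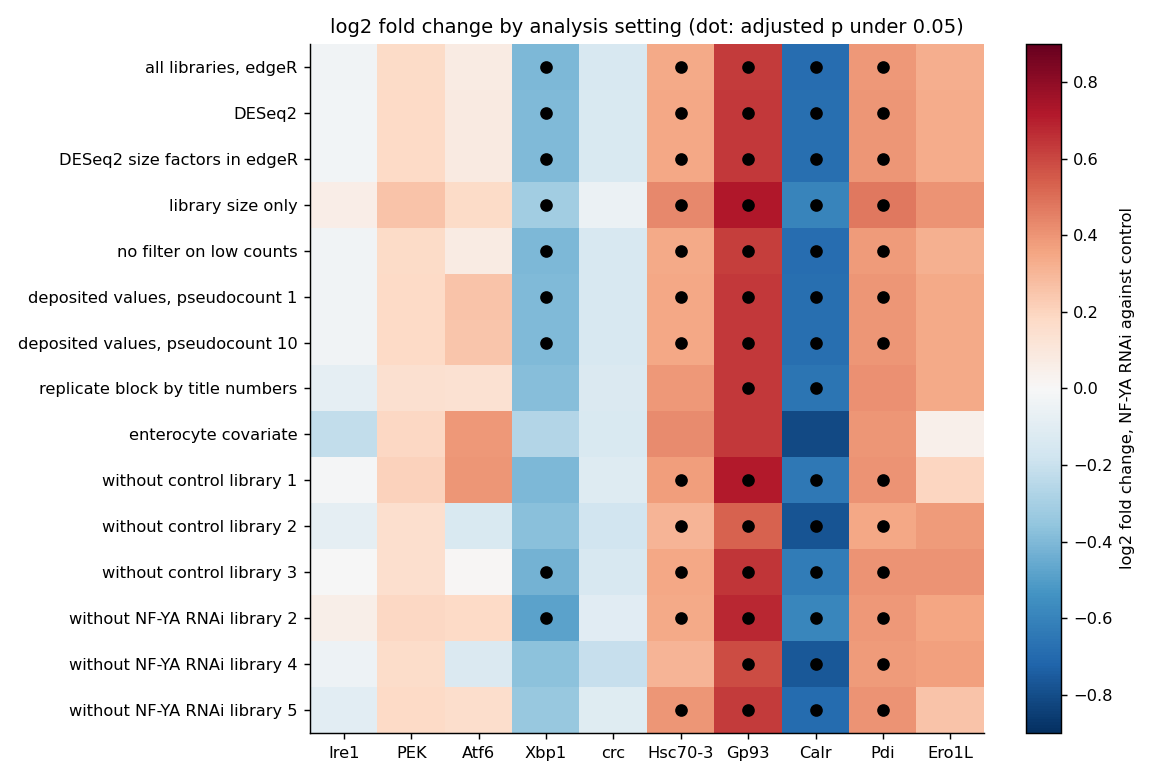
Log2 fold changes of the 10 genes (columns, by colour) under the analysis of all libraries and each alternative (rows); a black dot marks an adjusted p under 0.05. Gp93 and Calr have a dot in every row except the one with the enterocyte markers as a covariate, Xbp1 loses its dot in 4 of the 6 rows without 1 library, and Ire1, PEK, Atf6, crc and Ero1L have none.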

How the data were processed

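Midgut ISCs sorted by YFP were sequenced as paired-end 75 bp reads in 6 libraries, 3 per group. According to the methods, the authors used nf-core/rnaseq 3.18.0 with Trim Galore 0.6.10, STAR 2.7.11b on FlyBase release 6.62 and Salmon 1.10.3. The submitters' processing notes instead list FastQC, Trimmomatic, TopHat2, HTSeq and limma, and the methods were followed because the deposited transcript files are Salmon output. They deposited estimated counts and TPM for 34989 transcripts per library, without pooling. The signal values in their deposited gene table are counts divided by normalization factors, made with DESeq2. The log2 fold changes and p-values deposited by the authors in that table hold their own comparison and were not used.

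Estimated counts were summed over the transcripts of each gene (BDGP6.54, Ensembl release 115) and rounded. Transcripts in no annotated gene (44, between 0.209% and 0.345% of fragments) were left out of tests, and library sizes were the sums over genes. After filterByExpr and TMM normalization, groups were compared by the quasi-likelihood test of edgeR 4.0.16 in R 4.3.3 with a prior count of 0.125, and p-values were adjusted by Benjamini and Hochberg over all 9080 genes tested. Alternatives used DESeq2 1.42.0, its size factors in edgeR, library size only, no filter, limma 3.58.1 on log2 of the deposited values plus 1 or 10, each library left out, a replicate block and an enterocyte covariate (mean log2 CPM, prior count 2). The pipeline was tested on simulated counts. Python 3.11.15 was used for tables (pandas 2.3.3), figures (matplotlib 3.10.9) and the permutation test (SciPy 1.17.1).

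The 10 genes and the lists were chosen with earlier results of these data known. All 10 are described, and of the list of other ER genes, the 3 called genes with the smallest p per set and direction are named, together with Nf-YA, the defining marker of each cell type and the genes stated as exceptions. Promoter motifs were planned and not analysed here, because no sequence was used.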

Additional observations from a re-analysis of the deposited data

How the results depend on the processing

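The 5 calls among the 10 genes (3 upregulated, 2 downregulated) were 5 with DESeq2, DESeq2 size factors, library size only, no filter and the deposited values with either pseudocount. Without 1 library the number was between 3 and 5, and 0 with the enterocyte markers as a covariate. The list of other ER genes had 17 called genes with all libraries, between 17 and 22 under those 6 settings, between 8 and 16 without 1 library and 1 with the covariate. With a replicate block by title numbers, 2 of the 10 genes (Gp93 and Calr) and 9 list genes were called, and Xbp1 (adjusted p = 0.208), Hsc70-3 (adjusted p = 0.169) and Pdi (adjusted p = 0.159) were not. Control library 3 and NF-YA RNAi library 5 share their title numbers with no other library, so the contrast in that fit rested on the remaining libraries. Whether the numbers pair the samples is not known, and titles and library names number the NF-YA RNAi libraries differently. Deviations of libraries with the same title number correlated by 0.0511 and -0.0203. So few correlations cannot show whether samples were handled as pairs. Of 140 values for the 10 genes under 14 alternatives, 123 had the same direction and side of the threshold, 13 lost their call and 4 changed sign. Those 4 were Ire1 with library size only (0.057) and without NF-YA RNAi replicate 2, and Atf6 without control replicate 2 and without NF-YA RNAi replicate 4, none of them called. Without 1 library the log2 fold change of Ire1 ran from -0.094 to 0.055 and that of Atf6 from -0.14 to 0.39. The difference in the Xbp1 spliced share was between -8.79 and -1.48 percentage points without 1 library. The cause of these changes was not tested. Over all genes, library size only moved the median log2 fold change by 0.09 and the upregulated share of calls from 43.6% to 59.2%, while the 5 calls held. DESeq2 called 838 genes upregulated and 1039 downregulated. Atf6 had 243 to 584 fragments per library, the fewest of the 10 genes.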
